A study of Mus musculus with 24 samples.

Results

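The expression of 4 genes was read here in mouse bone marrow progenitors: Il7r, Il2rg and Il2rb, which encode chains of the receptors for interleukin-7, interleukin-2 and interleukin-15, and Ltb, which encodes lymphotoxin beta. They were found by gene identifier as 4 of the 17149 genes in the table, and all 4 passed the filter on low values that left 16215 genes to test. Ltb is a membrane-bound ligand of the tumour necrosis factor family and not a receptor chain, so it is described apart from the other three. Total RNA had been sequenced for 76 cycles from cells of the lineage-negative Sca-1+ Kit+ gate (LSK) of bone marrow. The CD135- fraction of that gate was labelled HSC, for haematopoietic stem cells, and the CD135+ fraction LMPP, for lymphoid-primed multipotent progenitors. CD135 is the Flt3 receptor, and the CD135- LSK gate is known to hold multipotent progenitors beside stem cells. Each fraction was sorted again by a Rag2-GFP reporter into GFP-negative and GFP-positive cells. Control mice (Ctrl) were Tal1 F/F, with both Tal1 alleles floxed and no Cre, and knockout mice (KO) were VaviCre Tal1 F/F. All groups carried Rag2GFP. VaviCre is known to act across blood cell lineages, so the deletion was not limited to these fractions. The 2 genotypes, 2 fractions and 2 reporter gates gave 8 groups of 3 libraries, 24 in all. The labels used here do not say that the 3 libraries of a group came from separate animals, so the p-values below measure the spread between these libraries, which may be technical in part.

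Cytokine receptors of this family work as assemblies. The common gamma chain, encoded by Il2rg, is shared by the receptors for interleukins 2, 4, 7, 9, 15 and 21 and carries the kinase Jak3. The interleukin-7 receptor alpha chain, encoded by Il7r, binds the cytokine and pairs with the gamma chain, or with Crlf2 to bind thymic stromal lymphopoietin. Interleukin-7 signalling runs through Jak1, Jak3 and Stat5, keeps early B and T precursors alive and marks the step from multipotent to lymphoid-committed progenitors in the bone marrow. The beta chain encoded by Il2rb binds interleukin-2 and interleukin-15 and is a classical marker of natural killer cells and their precursors. Ltb pairs with lymphotoxin alpha on the surface of lymphoid cells and engages the lymphotoxin beta receptor, Ltbr, on stromal and myeloid cells. Tal1 is a basic helix-loop-helix transcription factor of stem cells and of the erythroid, megakaryocyte and mast cell lineages, and it binds E-boxes, often beside GATA factors.

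In GENCODE M21 on GRCm38 (mm10), Il7r (ENSMUSG00000003882) lies on the minus strand at chr15:9505788-9530176 with 9 exon blocks and 4663 exonic bases. Il2rb (ENSMUSG00000068227) lies on the same chromosome and strand at chr15:78479256-78495271 with 11 exon blocks and 4287 exonic bases. Il2rg (ENSMUSG00000031304) lies on the minus strand at chrX:101264378-101268255 with 6 exon blocks and 2387 exonic bases. Of these, 728 bases (30.5%) are shared with an overlapping gene on the same strand, Gm20489, which has no entry of its own in the table, so reads from that stretch cannot be assigned to one gene or the other. Ltb (ENSMUSG00000024399) lies on the plus strand at chr17:35194439-35196320 with 2 exon blocks and 1516 exonic bases. All 4 are protein-coding genes.

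Since the study removed an E-box-binding factor, the promoters of 3 members are printed, from RefSeq on GRCm38.p6, with E-boxes (CANNTG) in capitals. The window searched was the 250 bases before the RefSeq start site, and Ltb is printed only as far as the first base that GENCODE calls untranslated. The Il7r promoter runs over chr15:9529877-9530126, that of Il2rg over chrX:101268256-101268505, both on the minus strand, and the printed stretch for Ltb over chr17:35194257-35194438 on the plus strand. The 2 protein-coding GENCODE transcripts of Il7r begin downstream of its window, at 9529835 and 9529828, but a noncoding one begins upstream of it, at 9530176, so the window lies inside the GENCODE gene and 86 of its bases are exonic in that noncoding transcript. Each is written 5′ to 3′.
Il7r: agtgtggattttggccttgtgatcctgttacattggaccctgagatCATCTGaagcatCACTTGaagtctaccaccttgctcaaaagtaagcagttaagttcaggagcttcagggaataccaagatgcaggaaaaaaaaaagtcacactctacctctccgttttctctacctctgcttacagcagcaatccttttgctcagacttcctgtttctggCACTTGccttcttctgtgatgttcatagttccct
Il2rg: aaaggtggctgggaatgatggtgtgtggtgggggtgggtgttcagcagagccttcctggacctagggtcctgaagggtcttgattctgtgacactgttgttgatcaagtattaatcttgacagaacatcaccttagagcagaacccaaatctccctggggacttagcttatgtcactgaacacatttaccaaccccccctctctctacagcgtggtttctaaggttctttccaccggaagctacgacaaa
Ltb: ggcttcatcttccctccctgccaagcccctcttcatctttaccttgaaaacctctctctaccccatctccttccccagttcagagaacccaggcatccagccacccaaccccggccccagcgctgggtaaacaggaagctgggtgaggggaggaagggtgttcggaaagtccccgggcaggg
The Il7r window held 3 E-boxes, CATCTG at 204, CACTTG at 192 and CACTTG at 34 bases before the start site. The Il2rg window held 0, and that of Ltb held 1, CAGGTG, at 66 bases before the start site and outside the printed stretch. Among 32851 RefSeq promoter windows of the same length, 66.22% held at least 1 E-box and 12.21% held at least 3. The GATA motif (GATA or its reverse complement TATC) was found in 0 of the 3 windows and in 53.62% of all windows. A match on either strand of these letters is a description of the sequence and was not tied to binding in these cells.

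The deposited values were normalised counts made by the authors, with library totals between 6906083 and 11969093. Low values fell into separated steps, and when 1 step was taken as 1 read, the totals corresponded to 4611963 to 14413386 reads per library. The lowest step, taken as no read, held between 755 and 5465 genes per library, and it is called the lowest class below because values in it run from 0 to 0.50. Genes above 1 normalised count numbered 11684 in replicate 3 of the KO GFP-positive LMPP and 11982 in replicate 2 of the Ctrl GFP-positive HSC, against a median of 15432.5. Values of the comparisons that use these 2 libraries of low detection are also given with both left out. Replicates 1 and 3 of the Ctrl GFP-positive HSC came next from below, at 13583 and 14455 genes. Their lowest classes held 3566 and 2694 genes, against a median of 1490. Leaving replicate 2 out therefore does not remove low detection from that group. Tal1 itself was measured between 325.7 and 2109 normalised counts in the Ctrl libraries and between 0.499 and 517.6 in the KO libraries, and every KO group was lower without overlap. Its fitted log2 change in KO was -2.34 without and -1.02 with GFP in HSC and -1.32 without and -3.82 with GFP in LMPP, of which only the last passed (limma, adjusted p = 0.0307). Replicate 3 of the KO GFP-positive LMPP held the lowest of these values, 0.499. Once the 2 libraries of low detection were left out, the changes with GFP were -0.63 in HSC and -2.35 in LMPP (limma adjusted p = 0.389 and 0.00220). The table does not say which exons were deleted, so RNA left in KO is not a measure of how many cells kept the gene. Rag2, whose reporter set the gate, was between 4.99 and 167.3 normalised counts in the GFP-negative and between 315.9 and 2593 in the GFP-positive libraries.

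Il7r was the member that followed the reporter. In Ctrl HSC it was measured at 0.0994, 4.04 and 0 normalised counts in replicates 1, 2 and 3 of the GFP-negative gate, the first and last in the lowest class. The GFP-positive Ctrl HSC had 41.0, 1146 and 236 normalised counts, so this group alone spanned the whole range of the GFP-positive libraries. In Ctrl LMPP the libraries held 2.76, 20.1 and 9.68 normalised counts without GFP and 242.6, 496.6 and 325.2 with it. Both Ctrl fractions thus had low Il7r without GFP and high Il7r with it. In KO HSC the values were 6.86, 32.9 and 3.74 normalised counts in the GFP-negative and 65.6, 42.1 and 87.2 in the GFP-positive gate. In KO LMPP they were 8.92, 27.5 and 19.4 in the GFP-negative and 608.3, 572 and 574.4 in the GFP-positive gate, values that lay close together. The lowest of the 12 GFP-positive libraries, at 41.0, was above the highest of the 12 GFP-negative libraries, at 32.9. The order of the group means was KO GFP-positive LMPP (584.9 ± 20.3, SD, n = 3), Ctrl GFP-positive HSC (474.3 ± 589.6), Ctrl GFP-positive LMPP (354.8 ± 129.6), KO GFP-positive HSC (65.0 ± 22.6), KO GFP-negative LMPP (18.6 ± 9.34), KO GFP-negative HSC (14.5 ± 16.0), Ctrl GFP-negative LMPP (10.8 ± 8.71) and Ctrl GFP-negative HSC (1.38 ± 2.31). Only 2 steps in this order separated neighbours whose libraries did not overlap, those on either side of the KO GFP-positive HSC. In bulk RNA of sorted cells, a smaller share of cells with a transcript and less transcript per cell cannot be told apart, here or for the other members.

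Il2rg was abundant everywhere and varied little. Its 24 libraries ranged from 308.2 to 950.5 normalised counts, and within each library it stood between the 86.4 and the 97.6 percentile of all genes. Without GFP the libraries of Ctrl HSC held 476.9, 399.6 and 326.4, those of KO HSC 690.6, 615.8 and 656.4, those of Ctrl LMPP 549.2, 756.6 and 776.6 and those of KO LMPP 950.5, 847 and 670.4 normalised counts. The LMPP were thus at or above the HSC of their genotype, with some overlap in KO. With GFP the libraries of Ctrl HSC held 522.8, 408.3 and 670, those of KO HSC 670.7, 537.9 and 781.1, those of Ctrl LMPP 439.7, 308.2 and 444 and those of KO LMPP 526.6, 583.3 and 543.9 normalised counts. The highest group mean (KO GFP-negative LMPP, 822.6 ± 141.6, SD, n = 3) was 2.07 times the lowest (Ctrl GFP-positive LMPP, 397.3 ± 77.2). Between them stood Ctrl GFP-negative LMPP (694.2 ± 125.9), KO GFP-positive HSC (663.2 ± 121.8), KO GFP-negative HSC (654.2 ± 37.5), KO GFP-positive LMPP (551.3 ± 29.1), Ctrl GFP-positive HSC (533.7 ± 131.2) and Ctrl GFP-negative HSC (401 ± 75.3). Neighbours in this order overlapped, except KO GFP-negative HSC and KO GFP-positive LMPP.

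Il2rb was near the floor in most libraries, and 11 of its 24 libraries were in the lowest class. The Ctrl GFP-positive HSC stood apart, with 85.75, 225.3 and 25.38 normalised counts (112.1 ± 102.5, SD, n = 3). The corresponding GFP-negative Ctrl HSC had 0.0903, 5.85 and 0, and the KO GFP-positive HSC 6.41, 0.704 and 0.00106 normalised counts. Outside that group the highest library was replicate 1 of the Ctrl GFP-negative LMPP, at 46.77, while replicates 2 and 3 of the same group were at 0.390 and 0. The KO GFP-negative LMPP were in the lowest class in all 3 libraries, with at most 0.219 normalised counts. The remaining groups ranged from 0.160 to 16.3 (Ctrl GFP-positive LMPP), from 0 to 5.72 (KO GFP-negative HSC) and from 0.1155 to 2.99 (KO GFP-positive LMPP). In the order of group means, neighbouring groups overlapped at every step.

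Ltb was highest in the GFP-negative LMPP of both genotypes, a pattern unlike that of Il7r. The libraries held 186.1, 63.4 and 38.7 normalised counts in Ctrl and 85.1, 111.9 and 104.1 in KO GFP-negative LMPP. The GFP-positive LMPP held 30.1, 5.07 and 14.7 in Ctrl and 13.2, 29.1 and 4.98 in KO. In both genotypes every GFP-negative LMPP library was above every GFP-positive one. Every HSC library was below the GFP-negative LMPP libraries of its genotype, with 22.4, 4.02 and 11.98 (Ctrl) and 36.2, 22.6 and 15.01 (KO) in the GFP-negative, and 1.92, 0.0309 and 16.2 (Ctrl) and 7.68, 0.705 and 23.1 (KO) in the GFP-positive libraries. The means ran from 100.4 ± 13.8 (SD, n = 3) in KO and 96.1 ± 79.0 in Ctrl GFP-negative LMPP through KO GFP-negative HSC (24.6 ± 10.8), Ctrl GFP-positive LMPP (16.6 ± 12.6), KO GFP-positive LMPP (15.8 ± 12.3), Ctrl GFP-negative HSC (12.8 ± 9.20) and KO GFP-positive HSC (10.5 ± 11.4) to Ctrl GFP-positive HSC (6.05 ± 8.85). The only neighbours without overlap were Ctrl GFP-negative LMPP and KO GFP-negative HSC.

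**Figure D1:**
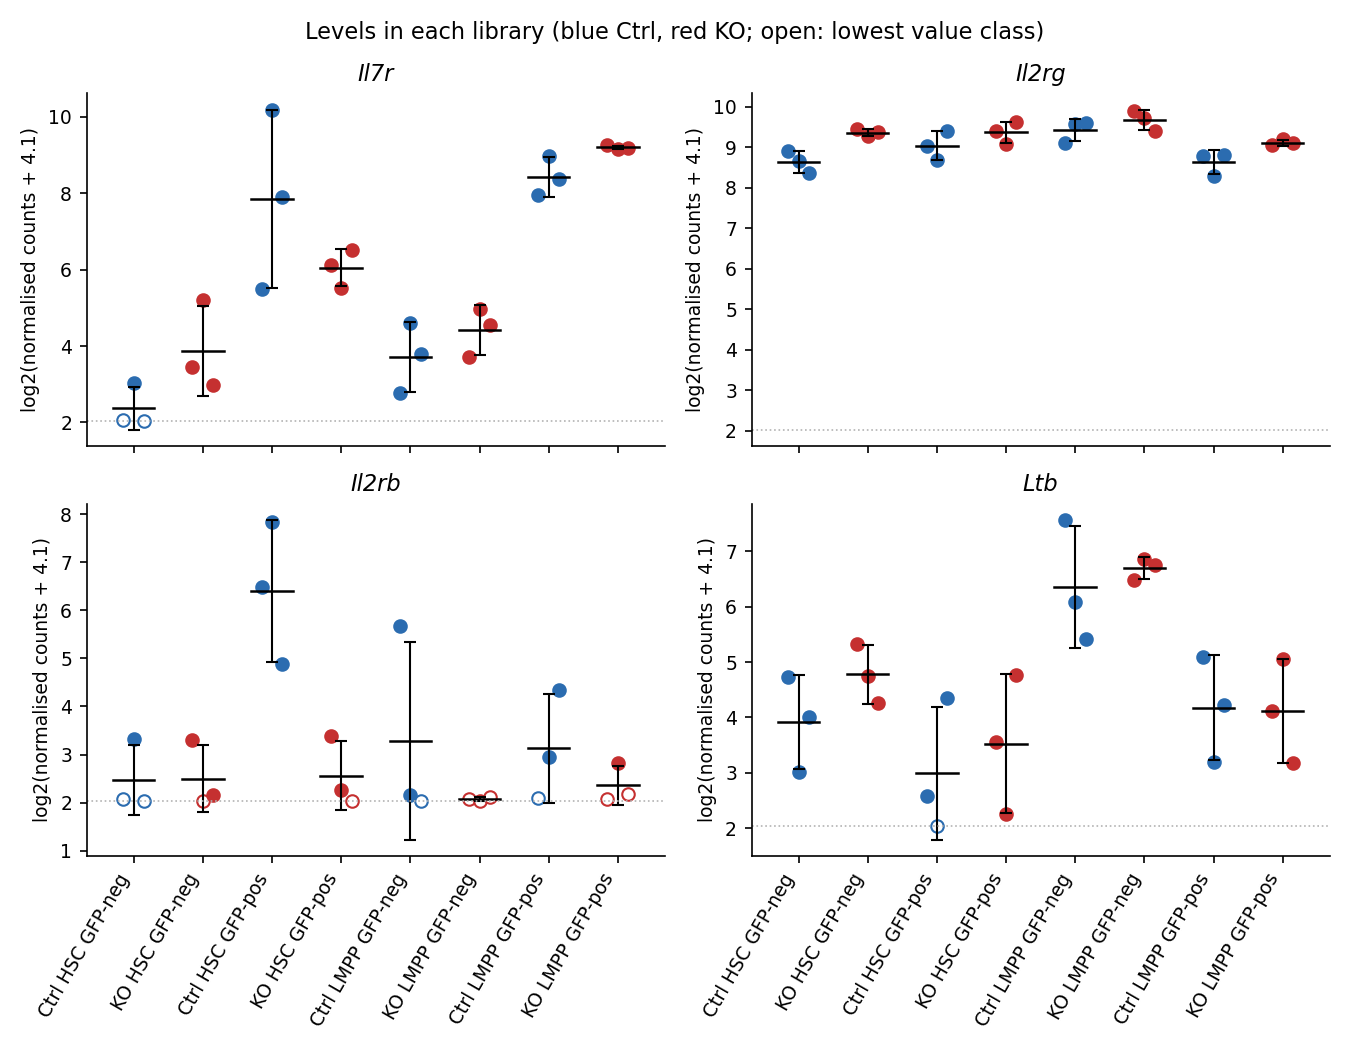
Normalised counts of Il7r, Il2rg, Il2rb and Ltb in the 24 libraries, by group, on a log axis; points are libraries and bars are group means. Il7r separates the 12 GFP-positive libraries (41.0 and above) from the 12 GFP-negative ones (32.9 and below), Il2rg stays between 308.2 and 950.5, Il2rb is high in the Ctrl GFP-positive HSC, and Ltb is highest in the GFP-negative LMPP.

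Because genes of different length collect different numbers of reads, levels of the members were compared per kilobase of exonic length. On that scale the group means of Il2rg ran from 166.4 to 344.6, those of Il7r from 0.296 to 125.4, those of Ltb from 3.99 to 66.2 and those of Il2rb from 0.0246 to 26.2 normalised counts per kilobase. The gamma chain was thus the most abundant of these 3 receptor chains in every group mean. The highest group mean was 423.7 times the lowest for Il7r and 1065 times for Il2rb, against 2.07 for Il2rg. Most Il2rb libraries were near the floor, and Il2rg also differed without overlap in some comparisons below. Taken library by library, the level of Il7r per kilobase was a median of 0.0107% of that of Il2rg in Ctrl GFP-negative HSC (lowest 0, highest 0.518) and 18.03% in Ctrl GFP-positive HSC (4.02 to 143.7). In the LMPP of Ctrl it was a median of 0.638% without GFP (0.257 to 1.36) and 37.5% with it (28.2 to 82.5). The KO HSC had medians of 0.508% (0.292 to 2.74) and 5.004% (4.01 to 5.72), and the KO LMPP of 1.48% (0.480 to 1.67) and 54.1% (50.2 to 59.1). In 1 library, replicate 2 of the Ctrl GFP-positive HSC, Il7r exceeded Il2rg per kilobase.

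**Figure D2:**
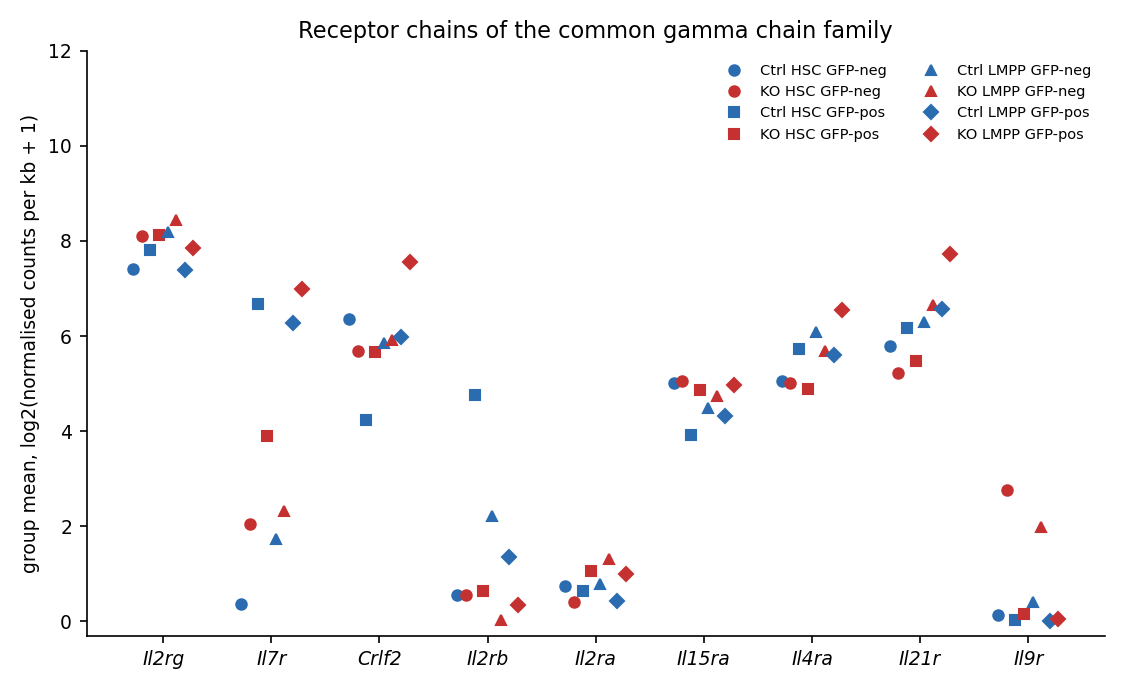
Levels of the receptor chains per kilobase of exonic length in each of the 8 groups, on a log axis. The Il2rg means lie between 166.4 and 344.6 normalised counts per kilobase in every group, while the Il7r means run from 0.296 to 125.4.

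GFP-positive cells were compared with GFP-negative cells of the same genotype and fraction, which shows how the members differ between the reporter gates. Il7r was higher with the reporter, without overlap, in all 4 comparisons, and 3 of these passed the threshold given next. Changes are log2 differences of values raised by a pseudocount of 4.1 normalised counts, which understates the change of genes near the floor, and an adjusted p under 0.05 over all 16215 genes is called passing. In Ctrl HSC the change of Il7r was 5.48 ± 0.85 (SE; 95% interval 3.73 to 7.23; limma, adjusted p = 0.000522). In Ctrl LMPP it was 4.71 ± 0.85 (2.96 to 6.45; adjusted p = 0.0231), and in KO LMPP 4.79 ± 0.85 (3.04 to 6.53; adjusted p = 0.00401). In KO HSC it was 2.18 ± 0.85 (0.43 to 3.92), with all 3 GFP-positive libraries above all 3 GFP-negative ones, and did not pass (limma adjusted p = 0.635).

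Il2rb, the chain shared by the interleukin-2 and interleukin-15 receptors, rose with the reporter in Ctrl HSC, by 3.93 ± 0.82 on the log2 scale (2.24 to 5.63; limma, adjusted p = 0.00862). Its changes in the other 3 comparisons were -0.16 (Ctrl LMPP), 0.07 (KO HSC) and 0.29 (KO LMPP). Il2rg, the shared gamma chain, differed by 0.40 and -0.80 in the HSC and LMPP of Ctrl and by 0.0047 and -0.56 in those of KO. In both LMPP comparisons every GFP-positive library was below every GFP-negative one, yet neither passed (limma adjusted p = 0.597 in Ctrl and 0.337 in KO). Ltb, the ligand, differed by -0.93, -2.18, -1.25 and -2.58 in the same order. Its LMPP libraries likewise did not overlap, and neither LMPP comparison passed alone (limma, adjusted p = 0.667 in Ctrl and 0.133 in KO). With 16 residual degrees of freedom the standard error of these differences was 0.85 for Il7r, 0.82 for Il2rb, 0.81 for Ltb and 0.28 for Il2rg, so changes of several-fold in the first 3 can miss the threshold.

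In Ctrl HSC 2 of 4 members passed, both up, against 2.72% of all tested genes passing in either direction. In Ctrl LMPP 1 of 4 passed, against 0.0555%, in KO LMPP 1 of 4, against 1.15%, and in KO HSC 0 of 4, against 0.376%, with 1 member at an unadjusted limma p under 0.05. The libraries did not overlap for 2 members in Ctrl HSC (17.8% of all genes), 3 in Ctrl LMPP (14.8%), 1 in KO HSC (15.5%) and 3 in KO LMPP (19.1%). The median change over all genes was -0.24 in Ctrl HSC and -0.22 in KO LMPP, and in the comparisons below it was 0.19 in KO against Ctrl GFP-positive HSC, 0.19 in LMPP against HSC of the Ctrl GFP-positive cells and -0.11 in those of KO; the members' changes are given without taking this shift out. The KO and Ctrl comparisons do not share libraries with each other, but each GFP-positive group also enters the comparisons between genotypes and between fractions below.

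The libraries of low detection bore on these values as follows. Without replicate 2 of the Ctrl GFP-positive HSC, the library with the most Il7r and Il2rb, and replicate 3 of the KO GFP-positive LMPP, the change in Ctrl HSC was 4.33 for Il7r (limma adjusted p = 0.00168) and 3.21 for Il2rb (adjusted p = 0.0338). Without the first of these alone, that of Il2rb had an adjusted p of 0.0606, and without replicate 3 of the Ctrl GFP-negative HSC, one of 0.0518. Il7r in KO LMPP was 4.80 without both (limma adjusted p = 0.00101). The members that had not passed differed, without both, by 0.57 (Il2rg) and -0.45 (Ltb) in Ctrl HSC and by -0.55 (Il2rg), 0.38 (Il2rb) and -2.11 (Ltb) in KO LMPP, again without passing by limma. Il7r in Ctrl LMPP no longer passed when replicate 1 or 3 of the GFP-negative or replicate 2 or 3 of the GFP-positive libraries was left out, with limma adjusted p-values of 0.183, 0.106, 0.179 and 0.0682, while its change stayed between 4.24 and 5.15. Fitted on the 2 compared groups alone, the calls in Ctrl HSC were lost for Il7r (adjusted p = 0.125) and Il2rb (0.173), and with array weights that of Il2rb was lost (0.164). With a pseudocount of 0.1 ppm the call for Il7r in Ctrl LMPP was lost (limma adjusted p = 0.0607).

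**Figure D3:**
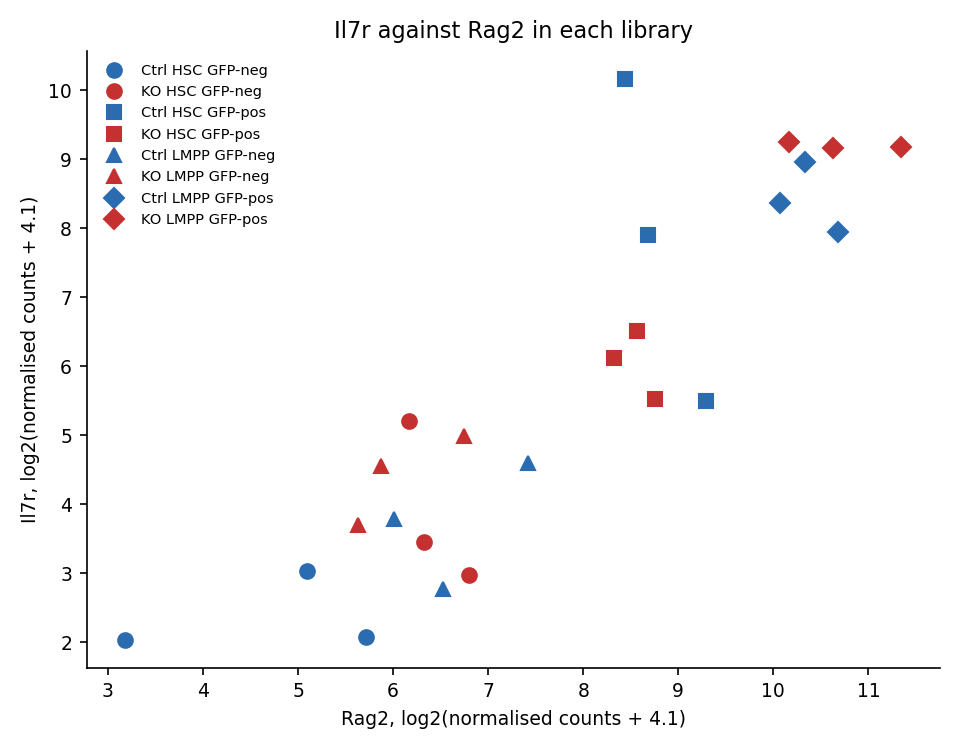
Il7r against Rag2 in the 24 libraries, both in normalised counts on log axes, with the groups told apart by colour and marker. The GFP-positive libraries lie at the upper right, with Rag2 from 315.9 to 2593 and Il7r from 41.0 to 1146, and the GFP-negative ones at the lower left.

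Among the GFP-positive libraries, a high Rag2 did not always go with a high Il7r. The KO GFP-positive HSC had 315.9 to 428.7 normalised counts of Rag2 and the Ctrl GFP-positive HSC 343.7 to 620.4, yet Il7r was 42.1 to 87.2 in the first and 41.0 to 1146 in the second. In Ctrl GFP-positive HSC the library with the least Rag2 (replicate 2, 343.7) had the most Il7r, and that with the most Rag2 (replicate 1, 620.4) had the least Il7r.

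KO was compared with Ctrl within each of the 4 sorted populations. Only the KO mice carried VaviCre, so loss of Tal1 and presence of Cre cannot be told apart in this comparison. One member passed in one population: Il2rb fell by 3.84 on the log2 scale in the KO GFP-positive HSC (SE 0.82; 95% interval -5.53 to -2.15; limma, adjusted p = 0.0359), with every KO library below every Ctrl library. Il7r in the same cells differed by -1.80 ± 0.85 (-3.55 to -0.06; limma adjusted p = 0.311), with overlap, since replicate 1 of Ctrl, at 41.0, was below all 3 KO libraries. In the other populations Il7r differed by 1.502 (HSC GFP-negative), 0.69 (LMPP GFP-negative) and 0.78 (LMPP GFP-positive), the last with every KO library above every Ctrl one, and did not pass (limma adjusted p = 0.9999, 0.9998 and 0.803).

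Il2rg had a higher mean in KO in all 4 populations, by 0.72, 0.32, 0.25 and 0.49 on the log2 scale in the GFP-negative and GFP-positive HSC and the GFP-negative and GFP-positive LMPP. It passed in none (limma, adjusted p between 0.623 and 0.9999), and the libraries did not overlap in the GFP-negative HSC and the GFP-positive LMPP. Ltb differed by 0.86, 0.54, 0.34 and -0.06 in that order, with overlap throughout. Il2rb outside the GFP-positive HSC differed by 0.02, -1.22 and -0.77 in the GFP-negative HSC and the GFP-negative and GFP-positive LMPP, also with overlap.

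The members passing in KO numbered 0 of 4 in GFP-negative HSC (limma; 0.16% of all genes passed; 1 member at an unadjusted p under 0.05), 1 of 4 in GFP-positive HSC (0.432% of all genes), 0 of 4 in GFP-negative LMPP (0.0555%; 0 at an unadjusted p under 0.05) and 0 of 4 in GFP-positive LMPP (0.0432%; 0 likewise). Libraries did not overlap for 1, 1, 0 and 2 members, against 12.7%, 14.3%, 10.8% and 9.55% of all genes. The call for Il2rb rested on few libraries. Without replicate 2 of the Ctrl GFP-positive HSC the change was -3.12 (limma adjusted p = 0.130), without replicate 2 or 3 of KO it was -3.69 and -3.58 (0.128 and 0.138), and with both libraries of low detection left out it was -3.12 (0.0604). It was also lost with a pseudocount of 0.1 ppm (-5.26, 0.0766), with array weights (-3.13, 0.414) and with the compared groups alone (0.598). For Il7r in these HSC, 1 Ctrl library set the size: without Ctrl replicate 2 the change was -0.65 (limma adjusted p = 0.822), and without Ctrl replicate 1 it was -2.98 (0.0474). In fits that left out both libraries of low detection, Il2rg and Ltb differed by 0.15 and 0.06 in the GFP-positive HSC, and in the GFP-positive LMPP the changes were 0.79 (Il7r), 0.496 (Il2rg), -0.68 (Il2rb) and 0.41 (Ltb), with 0 of 4 passing by limma in either.

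**Figure D4:**
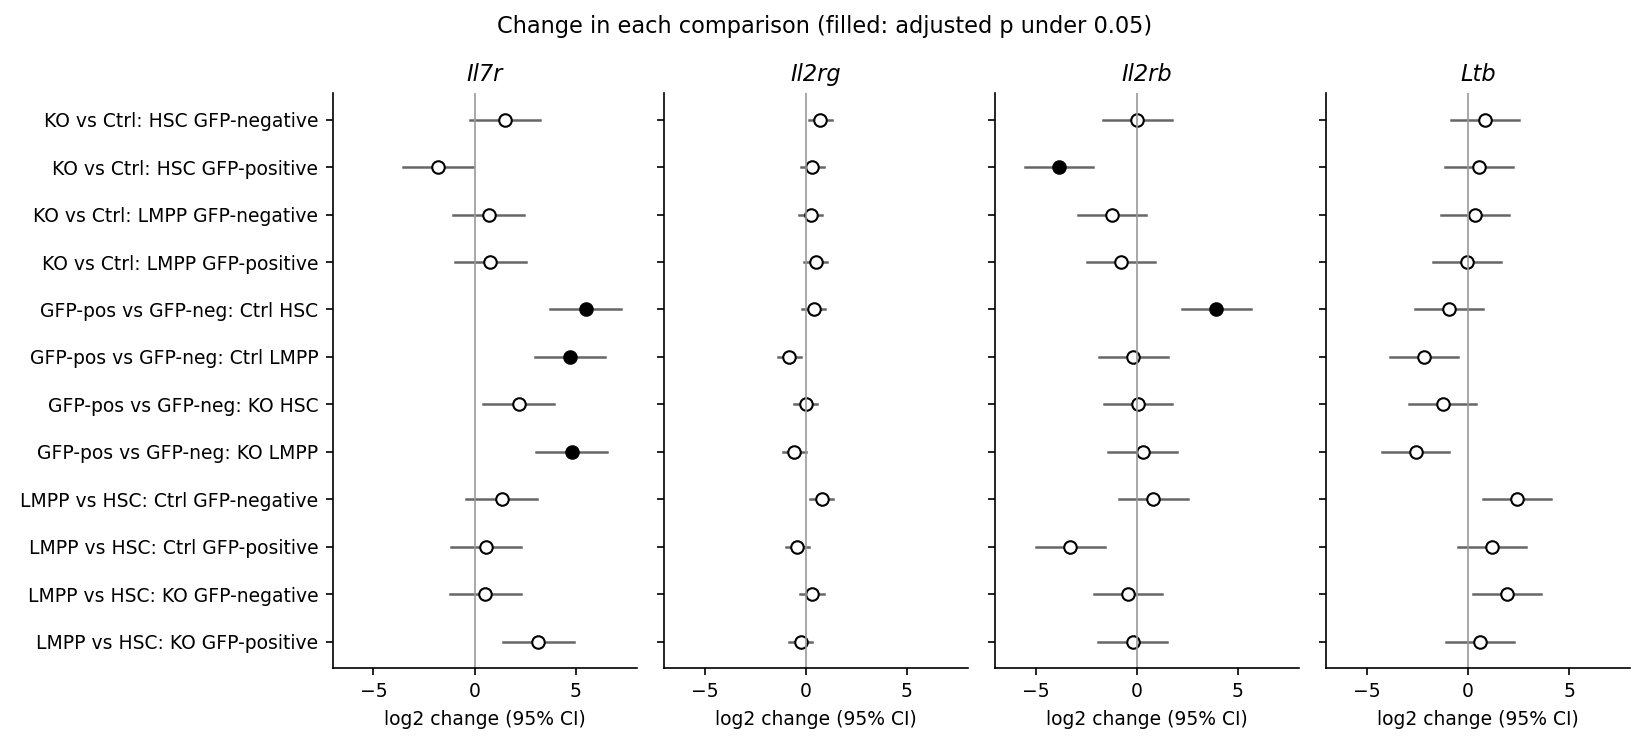
Log2 changes of the 4 members in the 12 comparisons of 2 groups, with 95% intervals; filled points passed at an adjusted p under 0.05. The passing points are Il7r with GFP in Ctrl HSC, Ctrl LMPP and KO LMPP, Il2rb with GFP in Ctrl HSC, and Il2rb in KO GFP-positive HSC.

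Markers of other lineages differed between the same groups, and the values are given here for the Ctrl GFP-positive HSC, where Il2rb and Il7r were high. Of 11 T cell markers listed, 6 were in the table, and their summed level was 449.7 to 2723 normalised counts in Ctrl GFP-positive HSC, 124.3 to 284.8 in KO GFP-positive HSC and 11.98 to 127.8 in Ctrl GFP-negative HSC. Most of that sum was Tcf7, a T lineage factor also of innate lymphoid cells, at 276.4, 444.1 and 2462 (lowest, median and highest) in Ctrl GFP-positive HSC, 61.3 to 176.2 in KO GFP-positive HSC and 0 to 40.3 in Ctrl GFP-negative HSC. Bcl11b, a defining T lineage factor, was at 79.3, 136.3 and 185.6 normalised counts in Ctrl GFP-positive HSC and at most 4.68 in any library of the other 7 groups, so it was high in the same group as Il2rb. Cd3e, a chain of the T cell receptor complex, was at 41.7 in 1 library of the Ctrl GFP-positive HSC and in the lowest class in the other two, and Cd5 at 6.27 in 1 and in the lowest class in the other two. The remaining T cell markers in the table, Cd4 and Lck, did not stand apart in Ctrl GFP-positive HSC. Cd4 had medians of 8.27 in Ctrl GFP-positive, 7.865 in KO GFP-positive and 56.95 in Ctrl GFP-negative HSC. Lck had medians of 75.43, 98.21 and 30.58 in that order, and was highest in Ctrl GFP-positive LMPP, at 285 to 602.7. Of 9 natural killer markers 4 were in the table, with sums of 582 to 1918, 659.8 to 1288 and 589.9 to 845.4 in the same order of groups. Nkg7, a granule gene, made up most of these sums, with 312.4 to 1914 normalised counts in Ctrl GFP-positive HSC and 659.8 to 1276 in KO GFP-positive HSC. Klrd1, a receptor chain of natural killer cells, was at 3.56, 42.7 and 269.5 in Ctrl GFP-positive HSC, against at most 7.67 in KO GFP-positive and 14.97 in Ctrl GFP-negative HSC. Klrb1c and Klrk1 were in the lowest class in all 3 libraries of the Ctrl GFP-positive HSC. The 6 innate lymphoid markers, all in the table, summed to 867.7 to 3234, 688.9 to 913.5 and 568.9 to 819.5. Their genes went different ways. Tox was higher without overlap in Ctrl GFP-positive HSC, at 237.8 to 326.4 against 70.0 to 150.4 and 73.5 to 120.8. Il1rl1 was lower without overlap, at 0.0322 to 13.1 against 159.3 to 195.5 and 29.9 to 139.4. Gata3, Zbtb16, Rora and Il18r1 overlapped with each of the other groups. The 6 neutrophil and monocyte markers, Mpo among them, summed to 56970 to 129000 in Ctrl GFP-positive HSC, 16240 to 56730 in KO GFP-positive HSC and 10800 to 29080 in Ctrl GFP-negative HSC. Erythroid markers (6 of 6 in the table) were at 0.189 to 121.3 in Ctrl GFP-positive HSC, 442.3 to 1082 in KO GFP-positive HSC and 265.6 to 464.1 in Ctrl GFP-negative HSC. Mast cell markers (6 of 6) were at 291.5 to 1758, 1426 to 2284 and 198.7 to 371.3 in the same order. Most of the sum in Ctrl GFP-positive HSC was Cpa3, at 285.3 to 1758 against 1251 to 1874 and 122.8 to 351.3. Ms4a2 was lower there without overlap, at 0.03184 to 1.913 against 136.4 to 330.5 and 16.97 to 135.4. Cma1 was also lower without overlap, in the lowest class in all 3 libraries against 8.938 to 78.02 and 2.586 to 2.994. Mcpt4 and Tpsb2 were likewise in the lowest class in all 3, and Fcer1a overlapped with both other groups. The part of these markers in the values of Il2rb and Il7r was not tested.

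Around the LMPP comparisons, 5 of 9 B cell markers were in the table. Their sums were 325.3 to 572.8 normalised counts in Ctrl GFP-positive and 113.7 to 259.7 in Ctrl GFP-negative LMPP, and 163 to 613.5 and 53.59 to 181.2 in the same gates of KO. Ebf1, a factor that specifies B cell precursors, was at 21.2 to 46.1 in Ctrl GFP-positive LMPP against 0 to 4.47 without GFP, and at 8.94 to 44.8 against 0.0893 to 1.85 in KO, so it was higher without overlap in the same LMPP comparisons as Il7r. Blnk, an adaptor of B cell receptor signalling, was at 114.3 to 412.3 against 11.6 to 133.6 in Ctrl and at 150.8 to 369 against 15.2 to 49.9 in KO. The Blnk libraries overlapped in Ctrl, and the summed B cell markers overlapped in KO. Cd79b overlapped in each genotype, at 113.7 to 187.5 with GFP against 86.9 to 128 in Ctrl and 2.74 to 180.1 against 16.2 to 129.1 in KO. Cd79a and Vpreb3 were in the lowest class in 17 and 16 of the 24 libraries. The 5 dendritic cell markers in the table summed to 919.1 to 1747 in Ctrl GFP-positive and 880.2 to 1022 in Ctrl GFP-negative LMPP, and to 1217 to 2145 and 897.2 to 1316 in KO. These sums held genes that went opposite ways with GFP. Irf8 was at 644 to 1526 against 213.8 to 402.4 in Ctrl and 504.1 to 1066 against 26.5 to 89.5 in KO. Siglech was also higher without overlap in each genotype. H2-Aa was lower without overlap, at 35.9 to 157.1 against 215.4 to 299.6 in Ctrl and 26.9 to 77.2 against 338.5 to 369.7 in KO. Itgax had a higher and Cd74 a lower mean in each genotype. Between genotypes, the erythroid markers were higher in KO without overlap in every population. They stood at 2007 to 3124 in KO GFP-negative HSC, at 1460 to 1958 in KO against 52.7 to 190.8 in Ctrl GFP-negative LMPP, and at 667 to 6398 against 42.6 to 160.4 in GFP-positive LMPP. The mast cell sums stood at 1905 to 9622 in KO GFP-negative HSC. In GFP-negative LMPP these sums were at 27 to 3092 in KO against 0.759 to 3.30 in Ctrl, and in GFP-positive LMPP at 2.87 to 3.49 against 6.78 to 19.8. The part of these markers in the values of Il7r, Il2rg and Ltb was not tested.

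LMPP were compared with HSC of the same genotype and reporter gate, which asks how the members differ along the CD135 gate. No member passed in any of these 4 comparisons by limma. Ltb was higher in the GFP-negative LMPP of both genotypes, without overlap, by 2.44 ± 0.81 in Ctrl (95% interval 0.76 to 4.11; adjusted p = 0.459) and 1.92 ± 0.81 in KO (0.25 to 3.60; adjusted p = 0.453). In the GFP-positive cells Ltb differed by 1.18 in Ctrl and 0.59 in KO. Il7r differed by 3.15 ± 0.85 (1.40 to 4.89; limma adjusted p = 0.102) between KO GFP-positive LMPP and HSC, without overlap; it passed in 6 of 11 other settings, among them the block on the number that libraries of a genotype share (adjusted p = 0.0479 with the replicate number and 0.0435 with the description number), and in 0 of 6 fits that left out 1 library. Il7r differed by 0.57 in the Ctrl GFP-positive cells, where the HSC libraries spanned those of the LMPP. In the GFP-negative cells Il7r differed by 1.34 (Ctrl) and 0.54 (KO).

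Il2rb went the other way in the Ctrl GFP-positive cells, with -3.28 ± 0.82 in LMPP against HSC (-4.97 to -1.58; limma adjusted p = 0.0528), without overlap. Its other changes were 0.82 (Ctrl GFP-negative), -0.43 (KO GFP-negative) and -0.20 (KO GFP-positive). Il2rg differed by 0.79 (limma, adjusted p = 0.561, no overlap) and 0.32 in the GFP-negative cells of Ctrl and KO and by -0.41 and -0.25 in the GFP-positive ones. Both GFP-positive groups thus had a lower Il2rg mean in LMPP, and both GFP-negative groups a higher one.

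Of the 4 members 0 passed in Ctrl GFP-negative cells (limma; 0.37% of all genes; 2 at an unadjusted p under 0.05), 0 in Ctrl GFP-positive (0.894%; 1), 0 in KO GFP-negative (0.876%; 1) and 0 in KO GFP-positive (0.611%; 1). Libraries did not overlap for 2, 1, 1 and 1 members, against 14.8%, 14.3%, 22.3% and 14.5% of all genes. Without both libraries of low detection, Il7r between KO GFP-positive LMPP and HSC was 3.16 with a limma adjusted p of 0.0499. Il2rb in the Ctrl GFP-positive cells passed in 1 of 6 fits that left out 1 library, that without replicate 3 of the Ctrl GFP-positive HSC (-4.04, limma adjusted p = 0.00920). Without replicate 2 of that group it was -2.56 (0.178), and with both libraries of low detection left out -2.56 (0.104). The other changes with GFP, without both, were 1.72 (Il7r), -0.59 (Il2rg) and 0.71 (Ltb) in Ctrl and -0.24 (Il2rg), -0.11 (Il2rb) and 1.05 (Ltb) in KO.

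Whether the reporter, genotype and fraction effects differed from each other was tested as a difference of differences. By limma 0 of 4 members passed in each of the 6 tests. In HSC the GFP change of Il7r differed by -3.30 ± 1.2 on the log2 scale between KO and Ctrl (SE; 95% interval -5.77 to -0.83; limma adjusted p = 0.592), and that of Il2rb differed by -3.87 ± 1.16 (adjusted p = 0.461). In LMPP the same difference for Il7r was 0.08 (-2.39 to 2.55). The GFP change of Il2rb in Ctrl differed by -4.10 between LMPP and HSC (limma, adjusted p = 0.362), and that of Il2rg by -1.20 (adjusted p = 0.549). In KO the GFP change of Il7r differed by 2.61 between LMPP and HSC (limma adjusted p = 0.701). The genotype change in the GFP-positive cells differed between LMPP and HSC by 2.58 for Il7r (adjusted p = 0.378) and 3.07 for Il2rb (adjusted p = 0.314). With both libraries of low detection left out, 0 of 4 passed again by limma in each of the 6. The difference between KO and Ctrl in the GFP change in HSC was then -2.15 for Il7r and -3.15 for Il2rb (limma adjusted p = 0.469 and 0.336), and with 1 library left out it ran from -4.48 to -2.15 and from -4.63 to -3.15. The difference between LMPP and HSC in the genotype change with GFP was 1.43 for Il7r and 2.44 for Il2rb (limma adjusted p = 0.736 and 0.573), with ranges of 1.42 to 3.76 and 2.35 to 3.83. That in the GFP change of Ctrl was -3.38 for Il2rb and -1.38 for Il2rg (limma adjusted p = 0.288 and 0.132), and that in the GFP change of KO was 2.62 for Il7r (0.674). A pass in one population and not in another is therefore not a shown difference between them for any member.

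The share of all genes that passed these 6 tests was 0.00617% for genotype by GFP in HSC and 0% in LMPP, 0% for genotype by fraction without GFP and 0.0308% with it, and 0.0247% for GFP by fraction in Ctrl and 0% in KO. Members at an unadjusted limma p under 0.05 numbered 2, 0, 0, 2, 2 and 1 in that order.

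Averages over groups were added after the values above had been seen, and they use the libraries of those comparisons again. Over both genotypes Il7r rose with GFP by 3.83 ± 0.60 in HSC (limma, adjusted p = 0.000284) and by 4.75 ± 0.60 in LMPP (adjusted p = 5.06e-05). Ltb fell by 2.38 on the log2 scale with GFP in LMPP (SE 0.58; 95% interval -3.57 to -1.20; limma, adjusted p = 0.0229), and rose from HSC to LMPP in the GFP-negative cells, by 2.18 ± 0.58 (0.996 to 3.36; adjusted p = 0.0475). Il2rb with GFP in HSC was 2.0 ± 0.58 (limma adjusted p = 0.0676) and Il2rg with GFP in LMPP -0.68 ± 0.20 (adjusted p = 0.0691). Averaged over the 4 populations, the KO change was 0.29 for Il7r, 0.44 ± 0.14 for Il2rg (limma adjusted p = 0.280), -1.45 ± 0.41 for Il2rb (adjusted p = 0.171) and 0.42 for Ltb. Between GFP-positive LMPP and HSC it was 1.86 for Il7r (limma adjusted p = 0.127) and -1.74 for Il2rb (adjusted p = 0.143).

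In these averages 0 members passed for KO (limma; 0.469% of all genes; 2 at an unadjusted p under 0.05), 1 for GFP in HSC (2.45%), 2 for GFP in LMPP (2.22%), 1 for LMPP against HSC without GFP (1.79%) and 0 with GFP (1.84%; 2 at an unadjusted p under 0.05). The fall of Ltb with GFP in LMPP no longer passed without replicate 1 of the Ctrl GFP-negative LMPP (-2.08, limma adjusted p = 0.0930), replicate 2 of the Ctrl GFP-positive LMPP (-2.14, 0.0847), replicate 2 of the KO GFP-negative LMPP (-2.34, 0.0607) or replicate 3 of the KO GFP-positive LMPP (-2.15, 0.0604). Without both libraries of low detection it was -2.15 (0.0282). The rise of Ltb from HSC to LMPP kept its call in 1 of 12 fits that left out 1 library (replicate 3 of the Ctrl GFP-negative LMPP), with a change between 1.88 and 2.38 in the others. With a pseudocount of 0.1 ppm neither Ltb average passed (limma adjusted p = 0.0916 and 0.181). Without replicate 2 of the Ctrl GFP-positive HSC, Il7r between GFP-positive LMPP and HSC was 2.44 (limma adjusted p = 0.0104). Il2rb passed in 1 of 12 such fits for GFP in HSC and in 1 of 12 for LMPP against HSC with GFP, both without replicate 3 of the Ctrl GFP-positive HSC (2.38 and -2.12, limma adjusted p = 0.0186 and 0.0416). Without replicate 2 of that group these were 1.64 and -1.38 (limma adjusted p = 0.158 and 0.255). Without both libraries of low detection Il7r rose with GFP by 3.25 in HSC and 4.75 in LMPP (limma, adjusted p = 0.000207 and 2.46e-06) and differed by 2.44 between GFP-positive LMPP and HSC (0.00906), Il2rg with GFP in LMPP was -0.68 and passed (0.0284), and the KO averages were 0.58 (Il7r), 0.40 (Il2rg), -1.25 (Il2rb) and 0.42 (Ltb), none of which passed.

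**Figure D5:**
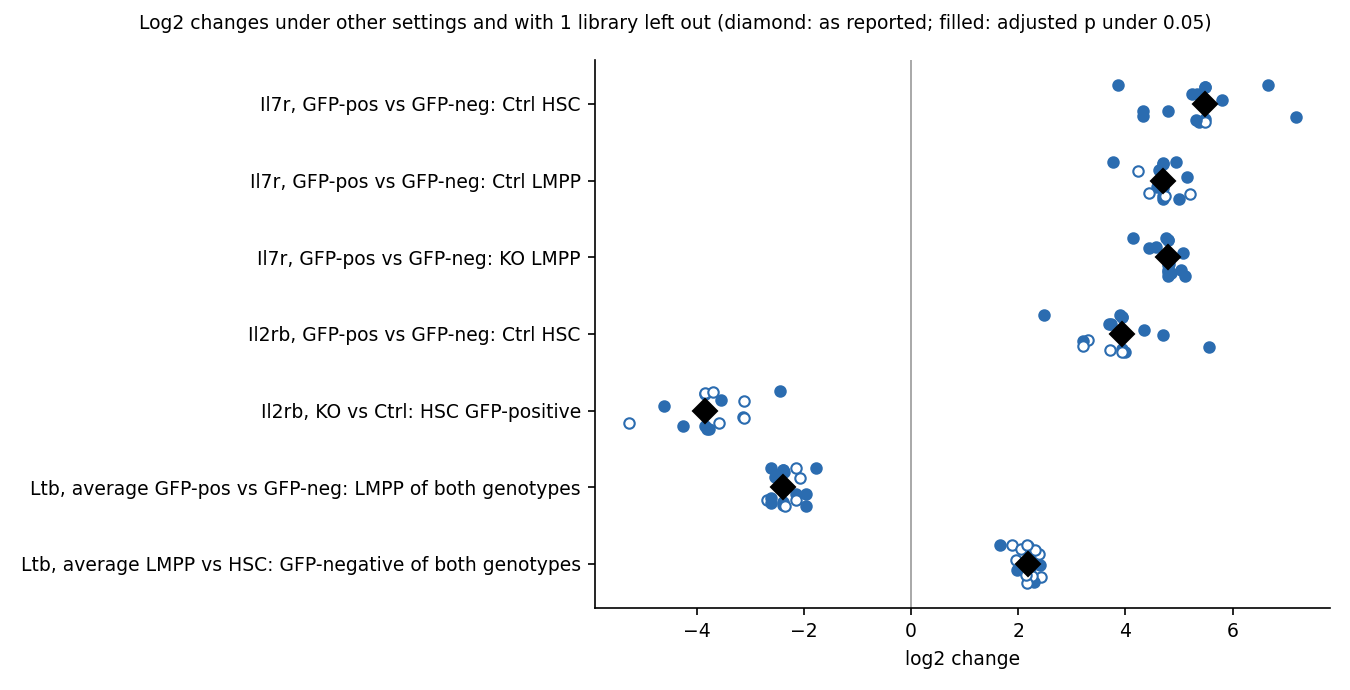
Log2 changes of the members under each processing setting, for the results that passed or came near the threshold; filled points passed at an adjusted p under 0.05. The Il7r changes with GFP lie between 3.86 and 7.19 in Ctrl HSC and between 4.14 and 5.11 in KO LMPP, and the Il2rb change in KO GFP-positive HSC lies between -5.26 and -2.45.

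The partners of the receptor chains were read from a list of 32 genes of gamma-chain cytokine signalling. Of these 29 were in the table and 27 were tested, Il4 and Il2ra being under the filter. In 10 of the 12 comparisons of 2 groups 0 of 27 passed by limma. In KO LMPP 1 rose with GFP, Bcl2, a survival gene downstream of interleukin-7. It held 2353, 4311 and 5299 normalised counts (lowest, median and highest) with GFP and 1218 ± 50.1 (SD, n = 3) without, without overlap, a change of 1.63 ± 0.34 (adjusted p = 0.0133). In KO GFP-positive LMPP against HSC 2 rose, both chains that pair with the gamma chain. Il4ra, of the interleukin-4 receptor, was 558.1 ± 263 normalised counts in LMPP (405 to 861.8) and 171.8 ± 103.2 in HSC (98.3 to 289.8), a change of 1.74 (limma, adjusted p = 0.0473). Il21r, of the interleukin-21 receptor, was 704.6 ± 551.4 (346.2 to 1340) against 145.5 ± 118.1 (74.0 to 281.8), a change of 2.25 ± 0.49 (adjusted p = 0.0236). In the averages Bcl2 rose with GFP in LMPP by 1.35 (limma, adjusted p = 0.00200) and Il21r from HSC to LMPP with GFP by 1.32 (adjusted p = 0.0429), and 0 of 27 passed in the other 3. When the libraries of low detection were left out, Bcl2 kept its calls (1.97 in KO LMPP and 1.52 in the average; limma, adjusted p = 0.00142 and 0.000111), while Il4ra (1.38, 0.115) and Il21r (1.65, 0.0789; average 1.001, 0.0665) lost theirs. Other genes of the list passed then: Stat5a, a signal transducer of the pathway, was lower with GFP in Ctrl HSC (-1.03, limma adjusted p = 0.0294) and in Ctrl GFP-negative LMPP against HSC (-1.08, 0.0269). Socs2, a feedback inhibitor, was lower with GFP in KO HSC (-3.51, limma adjusted p = 0.0369), and Sh2b3, an adaptor that restrains cytokine signalling, was higher in KO GFP-positive LMPP against HSC (1.43, 0.0202). In KO GFP-negative LMPP against HSC, Il7 and Il21r were higher (2.45 and 1.44, limma adjusted p = 0.0476 and 0.0368) and Bcl2 lower (-1.17, 0.0234). In the averages the number passing was then 0 for KO, 2 for GFP in HSC (0 higher, 2 lower) and 2 for GFP in LMPP (1 higher, 1 lower). For LMPP against HSC it was 6 without GFP (5 higher, 1 lower) and 2 with GFP (2 higher, 0 lower). The share of all genes passing in that fit is not given here, so these counts cannot be set against it.

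Of the ligands, Il7 had group means from 0.158 to 58.9 normalised counts. It was highest in KO GFP-negative LMPP, at 54.3 to 63.4, against 5.38 to 18.4 in Ctrl, without overlap and without passing (log2 change 2.20, limma adjusted p = 0.9998). Of the kinases, Jak1 had group means from 1443 to 2083 and Jak3 from 250 to 818.4, and neither passed in any comparison of 2 groups. Of the partner chains, Crlf2 had group means from 26.7 to 278.9, and with GFP in Ctrl HSC it differed by -2.79 (limma adjusted p = 0.0757). Il15ra, the private chain of the interleukin-15 receptor, had group means from 63.0 to 143.6, and in Ctrl GFP-positive HSC, where Il2rb was high, it was 17.3, 34.5 and 137.1 normalised counts. The inhibitor Cish, a target of Stat5, differed by -3.06 with GFP in KO LMPP (limma adjusted p = 0.0623), with 2.74, 25.8 and 44.6 normalised counts against 139.9, 191.9 and 201.6. The 2.74 was replicate 3 of the KO GFP-positive LMPP; leaving out both libraries of low detection, the change was -2.24 (limma adjusted p = 0.236) and that of Crlf2 -1.78 (0.0898). Over the 27 genes the median change with GFP was -0.26 in Ctrl HSC, -0.08 in Ctrl LMPP, -0.21 in KO HSC and -0.12 in KO LMPP, beside -0.24, -0.04, -0.05 and -0.22 over all genes. The medians in KO against Ctrl were between -0.09 and 0.05. Leaving out the libraries of low detection, the medians were -0.18 in Ctrl HSC and -0.26 in KO LMPP, beside -0.12 and -0.00995 over all genes.

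The surroundings of Ltb were read from a list of 16 genes of the lymphotoxin and tumour necrosis factor family, all tested, of which 0 passed in any comparison by limma. After the libraries of low detection were left out, 15 were tested, and Nfkb2, a subunit of the noncanonical NF-kappa-B pathway, was lower with GFP in Ctrl HSC (-3.13, limma adjusted p = 0.00741) and higher in Ctrl GFP-positive LMPP against HSC (2.43, 0.0425). Its partner ligand Lta was near the floor, with group means from 0.0197 to 7.84 normalised counts, and Tnf had means from 1.24 to 30.8. The receptor Ltbr had group means from 61.3 in KO GFP-negative HSC to 297.9 in Ctrl GFP-positive HSC. With GFP in KO LMPP 15 of the 16 had a lower mean, with a median of -0.56 beside -0.22 over all genes, and in Ctrl LMPP 11 of 16, with a median of -0.24 beside -0.04. In HSC it was the other way, with 9 of 16 higher with GFP in Ctrl (median 0.12 beside -0.24) and 10 of 16 in KO (0.09 beside -0.05). In KO GFP-positive LMPP 13 of 16 were lower than in Ctrl, with a median of -0.40 beside -0.10, and in the other 3 populations 9 to 11 of 16 were lower. In GFP-negative LMPP against HSC 11 of 16 were higher in Ctrl (median 0.26 beside 0.01) and 12 of 16 in KO (0.33 beside -0.01), and in the GFP-positive cells 9 of 16 were lower in Ctrl (-0.03 beside 0.19) and 10 of 16 in KO (-0.48 beside -0.11). With the 2 libraries of low detection left out, the lower genes were 12 of 15 with GFP in KO LMPP, with a median of -0.18 beside -0.00995, and 9 of 15 in KO against Ctrl GFP-positive LMPP, with -0.07 beside 0.03.

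The genes most like each member were ranked by Pearson correlation of log2 values over the 24 libraries, among 10883 named genes with a mean of at least 5 ppm of the library total in some group. The libraries come from 8 groups and share the sort, so the coefficients describe the pattern and are given without a test. For Il7r they were Cmah (0.92), which encodes a sialic acid hydroxylase, Ctr9 (0.90), Rasal1 (0.89), Rag2 (0.88), whose reporter set the gate, and Ighm (0.86), the mu heavy chain. Cmah had means of 496.3 and 2729.2 normalised counts in GFP-negative and GFP-positive KO LMPP, and Ighm 2778.7 and 8840.1. For Il2rb the closest was Bcl11b (0.79), the T lineage factor that was high in the Ctrl GFP-positive HSC, followed by Bag6 (0.77), Cyb5d1 (0.77), Pak1 (0.75) and Tmed4 (0.75). For Ltb they were Ddx58 (0.85), a sensor of viral RNA, Map3k9 (0.82), Slc35d2 (0.82), Muc3a (0.81) and Pgpep1 (0.80). Il2rg had the loosest matches, led by Tgtp1 (0.72), an interferon-induced GTPase, Zdhhc17 (0.66), Syt11 (0.63), Perm1 (0.63) and Ccnd1 (0.62), the cyclin D1 gene.

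No pair of members followed each other closely. Over the 24 libraries the correlation was 0.57 between Il2rg and Ltb, -0.41 between Il7r and Ltb, 0.27 between Il7r and Il2rb, -0.27 between Il2rg and Il2rb, -0.32 between Il2rb and Ltb and -0.23 between Il7r and Il2rg. After the group means were taken out, it was -0.44 for Il2rg and Il2rb, 0.43 for Il2rg and Ltb, -0.18 for Il7r and Ltb, -0.16 for Il7r and Il2rg, and 0.01 both for Il7r and Il2rb and for Il2rb and Ltb. Il7r and Il2rb were both high in Ctrl GFP-positive HSC, where replicate 2 was highest in both; within groups the correlation of this pair was 0.01, as given.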

How the data were processed

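RNA of 24 sorted mouse bone marrow samples had been sequenced from libraries of the NuGEN Ovation Ultralow system, per the labels' protocols. The deposited signal values are normalised counts per gene made by the authors. Per the submitters' processing notes, HTSeq 0.6.1, Trimmomatic 0.33 and edgeR were used on mm10. The aligner, the strand setting and the normalisation function are not given in the sources used here. Whole reads could not be recovered for high values, so no count model was fitted and exact depth in reads is unknown.

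Of 17149 gene identifiers, 16978 matched GENCODE M21. Groups and replicate numbers came from the sample titles. Tests used log2(value + 4.1), the pseudocount being set at 0.5 ppm of the average library. A gene entered the tests if it reached 1 ppm in 3 or more libraries. The 8 group means were fitted in R 4.3.3 by limma 3.58.1, moderated by empirical Bayes with a trend on intensity (residual degrees of freedom 16, prior 9.53). The Benjamini-Hochberg adjustment ran over the 16215 genes of a comparison. The script was tested on simulated data. The members and gene lists were chosen with earlier results of these data known. Named genes are the members, the genes of the 2 pathway lists, chiefly those that passed, the 5 genes most correlated with each member, and Tal1, Rag2 and Flt3 as checks of the labels. Pathway genes that did not pass were named after their values were seen. Flt3 rose from HSC to LMPP in 3 of 4 comparisons (log2 change 2.55, 3.33 and 2.18) and was 1.57 in the Ctrl GFP-positive cells (limma adjusted p = 0.0535; 1.48 and 0.0459 without both libraries of low detection). Alternatives were other pseudocounts, filters and scalings, array weights, blocks, the compared groups alone and each library left out.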

Additional observations from a re-analysis of the deposited data

How the results depend on the processing

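Of 92 values (4 members in 23 comparisons), 9 passed in the fit reported. The passing number was 5 with a pseudocount of 0.1 ppm, 13 with 2 ppm, 8 without the filter, 9 with a filter of 5 ppm, 10 with a common total, 13 after quantile normalisation, 12 with array weights and 11 without both libraries of low detection. With the compared groups alone it was 8 of 75. Replicate numbers gave correlations of deviations from -0.03 to 0.20 and in no comparison exceeded 0.1 for all 3 pairs, so the numbers were not taken to pair the libraries, although those of 1 genotype also share a description number, whose meaning the labels do not give; with the replicate block 10 of 92 passed, the added one being Il7r in KO GFP-positive LMPP against HSC (3.15, limma adjusted p = 0.0479), 1 member there in place of 0, and with the description number as replicate block it also passed (adjusted p = 0.0435; 1 member). The causes of the changes below were not tested.

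The number of members passing moved as follows. In KO against Ctrl GFP-positive HSC it was 0 at 0.1 ppm, with array weights, without the 2 libraries of low detection and with the compared groups alone, and 0 to 2 with 1 library left out. For GFP in Ctrl HSC it was 1 with array weights, 0 with the compared groups alone and 1 to 2 with 1 library left out. For GFP in Ctrl LMPP it was 0 at 0.1 ppm and 0 to 1 with 1 library left out. For GFP in KO LMPP it was 2 at 2 ppm. For LMPP against HSC it was 1 in Ctrl GFP-positive cells at 2 ppm and after quantile normalisation and 0 to 1 with 1 library left out. It was 1 in KO GFP-positive cells at 2 ppm, after quantile normalisation, with array weights and without both libraries of low detection, 1 in Ctrl GFP-negative cells with array weights and 1 in KO GFP-negative cells with the compared groups alone. In the averages it was 2 for GFP in HSC at 2 ppm and after quantile normalisation (1 to 2 with 1 library left out), and 1 for GFP in LMPP at 0.1 ppm (1 to 2). For LMPP against HSC it was 0 without GFP at 0.1 ppm and without the filter, 2 with array weights and with the compared groups alone (0 to 1), and 1 with GFP with array weights and without both libraries of low detection (0 to 1).

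Signs turned only for values that had not passed. With array weights these were Ltb in KO GFP-positive HSC (-0.11) and LMPP (0.31), Il2rb with GFP in Ctrl LMPP (0.25), Il2rg with GFP in KO HSC (-0.050), Ltb for genotype by fraction with GFP (0.43) and Il2rb in the GFP-negative average of LMPP against HSC (-0.086). With a common total they were Il7r for genotype by GFP in LMPP (-0.049) and Il2rg for genotype by fraction with GFP (-0.49). At 0.1 ppm they were Il2rb with GFP in Ctrl LMPP (0.22) and Il7r for genotype by GFP in LMPP (-0.16), and at 2 ppm the Il2rb average with GFP in LMPP (-0.071). After quantile normalisation they were Il2rb in KO GFP-negative HSC (-0.074), Ltb in KO GFP-positive HSC (-0.45) and LMPP (0.49), Ltb with GFP in Ctrl HSC (0.26), Il2rb with GFP in Ctrl LMPP (0.10), Il2rg with GFP in KO HSC (-0.0060), Il2rb in KO GFP-positive LMPP against HSC (0.054), Ltb for genotype by GFP in LMPP (0.14), and Il2rg (-0.065) and Ltb (0.94) for genotype by fraction with GFP. Without both libraries of low detection they were Ltb in KO GFP-positive LMPP (0.41), Ltb for genotype by GFP in LMPP (0.069) and for genotype by fraction with GFP (0.35), and Il7r for GFP by fraction in Ctrl (0.38).

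With 1 library left out, the sign turned within these ranges. Il7r ran from -0.61 to 1.72 in Ctrl GFP-positive LMPP against HSC, -0.00246 to 0.58 in the KO average, -1.95 to 0.38 for GFP by fraction in Ctrl and -0.36 to 0.55 for genotype by GFP in LMPP. Il2rg ran from -0.12 to 0.15 with GFP in KO HSC and -0.014 to 0.34 for genotype by fraction with GFP. Il2rb ran from -0.38 to 0.45 in KO GFP-negative HSC, -0.79 to 1.03 with GFP in Ctrl LMPP, -0.35 to 0.47 with GFP in KO HSC, -0.37 to 1.44 in Ctrl GFP-negative and -0.47 to 0.21 in KO GFP-positive LMPP against HSC, -0.74 to 1.08 for genotype by GFP in LMPP, -0.18 to 0.64 for GFP by fraction in KO, and -0.25 to 0.66 and -0.40 to 0.51 in the averages for GFP in LMPP and for LMPP against HSC without GFP. Ltb ran from -0.082 to 1.21 in KO GFP-positive HSC, -0.13 to 0.95 and -0.55 to 0.41 in KO GFP-negative and GFP-positive LMPP, -0.045 to 1.21 in KO GFP-positive LMPP against HSC, -0.94 to 0.35 and -1.01 to 0.069 for genotype by GFP in HSC and LMPP, and -0.98 to 0.091 and -1.27 to 0.025 for genotype by fraction without and with GFP. Depth bears on Il2rb in 11 of 24 libraries that lie in the lowest class, on Il7r in 2, on Ltb in 1 and on Il2rg in 0.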
